A study of Mus musculus with 6 samples.

Results

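The 32 genes described here encode enzymes and regulators of cholesterol and fatty acid synthesis, and were followed in cultured neural stem cells of the mouse subventricular zone with and without the DNA methyltransferase Dnmt3a. They were taken as a list of gene symbols, matched to the array through the gene name or transcript accession of each probe. All 32 were found, on 66 of 41174 probes, among 28786 gene names in all. Every member had its brightest probe well above background in both channels of all 6 arrays, so all 32 were among the 18046 genes tested. Each Agilent array was hybridized in 2 colours, pairing wild-type (WT) with Dnmt3a-null (KO) RNA under opposite dyes, each from cultures grown from lateral ventricle walls dissected between postnatal day 14 and day 21. On 4 arrays both genotypes were proliferating in medium with FGF-2 and EGF at 10 ng/ml each. On the other two, cells had been replated with mitogens for 2 days and then held without them for 3 days, a protocol for spontaneous neuronal and glial differentiation. The labels name the KO cells only as Dnmt3a-null, with no allele or Cre line, and call the arrays biological replicates without saying which animals or cultures they came from. The p-values therefore measure the spread between these arrays. Proliferating arrays 1 and 3 and differentiating array 2 had the KO sample in Cy5, and the remaining arrays had it in Cy3.

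Cells make cholesterol from acetyl-CoA through mevalonate, the isoprenoids, squalene and a series of sterol intermediates. The transcription factor SREBP-2, encoded by Srebf2, drives most enzymes of this route, while SREBP-1, encoded by Srebf1, is known mainly for the enzymes that build, desaturate and elongate fatty acids. When membrane sterol is high, the Insig proteins hold SREBP and its escort Scap in the endoplasmic reticulum, and when it is low the complex moves to the Golgi, where SREBP is cut and released to the nucleus. In the brain cholesterol is made locally, since lipoproteins of the blood do not cross its barrier, and myelin-forming oligodendrocytes are its heaviest users.

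The proximal promoters of most members carry the letters bound by NF-Y and Sp1, known partners of SREBP, while the SREBP element searched for was rare, and 4 promoters are printed to show this. RefSeq promoter windows of GRCm38.p6, from 250 bases before to 50 after a start site, were present for 25 of the 32 members, in 33 windows. A CCAAT box, bound by NF-Y, stood on either strand in 20 of the 25 (80%), against 41.1% of all 27025 genes with such a window. GGGCGG, the core of an Sp1 site, also stood in 20 of 25 (80%), against 38.2%. The SREBP element TCACNCCAC was found in the window of Hmgcs1 alone among the 25 (4%, against 1.44% of all), and the E-box CACGTG in 6 (24%, against 8.09%). A ratio of observed to expected CpG of at least 0.6 was reached by 19 of 25 members (76%) and by 38.4% of all. Motifs were searched on both strands, and no matches of different motifs overlapped in the members' windows. These are letter matches, described only. The 200 bases before the start site are given 5′ to 3′, with any of the 4 motifs or their reverse complements in capitals. Hmgcs1 (chr13:119690151-119690350, plus strand) holds the SREBP element. Lss (chr10:76531405-76531604, plus strand) had ratios well below 0 in differentiating cells at its brightest probe. Ebp (chrX:8193513-8193712, minus strand) went the opposite way. Insig1 (chr5:28071212-28071411, plus strand) is an SREBP target and regulator.
Hmgcs1: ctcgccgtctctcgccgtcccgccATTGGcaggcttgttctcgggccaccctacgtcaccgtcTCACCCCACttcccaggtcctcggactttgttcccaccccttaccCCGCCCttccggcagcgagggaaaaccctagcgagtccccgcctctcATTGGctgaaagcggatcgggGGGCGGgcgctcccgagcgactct
Lss: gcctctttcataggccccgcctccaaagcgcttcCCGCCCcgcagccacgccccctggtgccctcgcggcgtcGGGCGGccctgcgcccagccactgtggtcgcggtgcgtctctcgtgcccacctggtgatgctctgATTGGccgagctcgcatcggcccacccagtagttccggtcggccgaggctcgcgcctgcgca
Ebp: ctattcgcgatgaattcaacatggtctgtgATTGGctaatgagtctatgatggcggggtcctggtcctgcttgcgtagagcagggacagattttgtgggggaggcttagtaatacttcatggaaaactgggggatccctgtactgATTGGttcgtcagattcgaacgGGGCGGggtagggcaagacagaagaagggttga
Insig1: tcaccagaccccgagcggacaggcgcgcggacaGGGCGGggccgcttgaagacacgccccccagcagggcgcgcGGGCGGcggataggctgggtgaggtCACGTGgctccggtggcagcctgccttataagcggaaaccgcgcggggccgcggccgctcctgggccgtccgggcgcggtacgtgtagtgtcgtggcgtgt
In the Hmgcs1 stretch the capitals mark NF-Y boxes on the other strand, read here as ATTGG, starting at -176 and -45, the SREBP element at -137, and Sp1 cores at -92 and -24, counting -1 as the base before the start site. Ebp has such NF-Y boxes at -170 and -55 and an Sp1 core at -33, and Lss has one at -62 with Sp1 cores at -166 and -127. Insig1 shows Sp1 cores at -167 and -126 and the E-box at -101 in this stretch. The gene that stood out from the other sterol enzymes in the arrays, Ebp, thus has the same 2 kinds of letters as Lss.

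Across the series, 52.3% to 59.1% of gene spots per channel were well above background, and the number of arrays limits the precision. Dnmt3a itself had log2 KO over WT ratios between -1.49 and -0.64 on all 6 arrays, and the labels do not say whether its probe lies in the deleted stretch. All 8 neural stem and progenitor markers, Nes and Sox2 among them, were detected. None of 6 microglial markers passed the filter on dim probes, and Ptprc alone was well above background, on 1 proliferating array. On proliferating arrays 3 and 4 the channels differed at the Y-linked gene Ddx3y, with log2 ratios of 2.41 and 2.94 against 0.01 and -0.12 on proliferating arrays 1 and 2, so results that rest on those arrays are also given without them. Proliferating array 4 stood apart in its 6 markers of dividing cells, whose median WT level lay at -0.29 on a log2 scale relative to each gene's mean over all channels, against 1.38 to 1.55 on the other proliferating arrays. All 4 proliferating arrays lie on 1 slide and both differentiating arrays on another.

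Setting KO against WT cells asks how these lipid genes respond when the methyltransferase is missing. None of the 32 members passed limma's test at an adjusted p under 0.05 in proliferating cells, where 0.97% of all genes tested did, and 4 had an unadjusted p under 0.05, which 15.9% of all genes had. In differentiating cells again none of 32 passed, against 3.1% of all genes, with 12 at an unadjusted p under 0.05 (17.5% of all genes). For the difference between the KO effects in the conditions none of 32 passed, against 0.0499% of all genes, with 8 at an unadjusted p under 0.05 (12% of all genes). The fitted log2 ratio had a median over the members of 0.04 in proliferating cells and -0.35 in differentiating cells, against -0.01 and -0.01 over all genes tested. The proliferating median turned to -0.13 without array 3 and to -0.03 without arrays 3 and 4, and became 0.16 and 0.14 without array 1 or 4 and 0.02 without array 2. The differentiating median was -0.50 without array 1 and -0.12 without array 2. In bulk cultures, fewer cells of a type cannot be told apart from less RNA per cell. These misses do not show that the levels were alike, since the 95% intervals of single members were wide. Stard4, for one, had an interval from -1.01 to 0.58 in differentiating cells. That of Hmgcs1, from -1.39 to -0.31, left out 0 before adjustment for the number of genes.

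What set the members apart from array to array was a shift of most of them together. On proliferating array 1 the ratios of 28 of 32 were below 0, with a median log2 ratio of -0.34. On array 2 they lay on the other side, with 26 above 0 and a median of 0.34, and on array 3 also, with 29 above 0 and a median of 0.22. Proliferating array 4 was divided, with 17 above 0 and a median of 0.10. Differentiating array 1 had 19 below 0 and a median of -0.05, whereas on array 2 there were 26 below 0 and the median was -0.66. Over all genes tested these medians stayed between -0.04 and 0.02. The lowest arrays were thus 1 proliferating and 1 differentiating, and the groups overlapped.

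**Figure D1:**
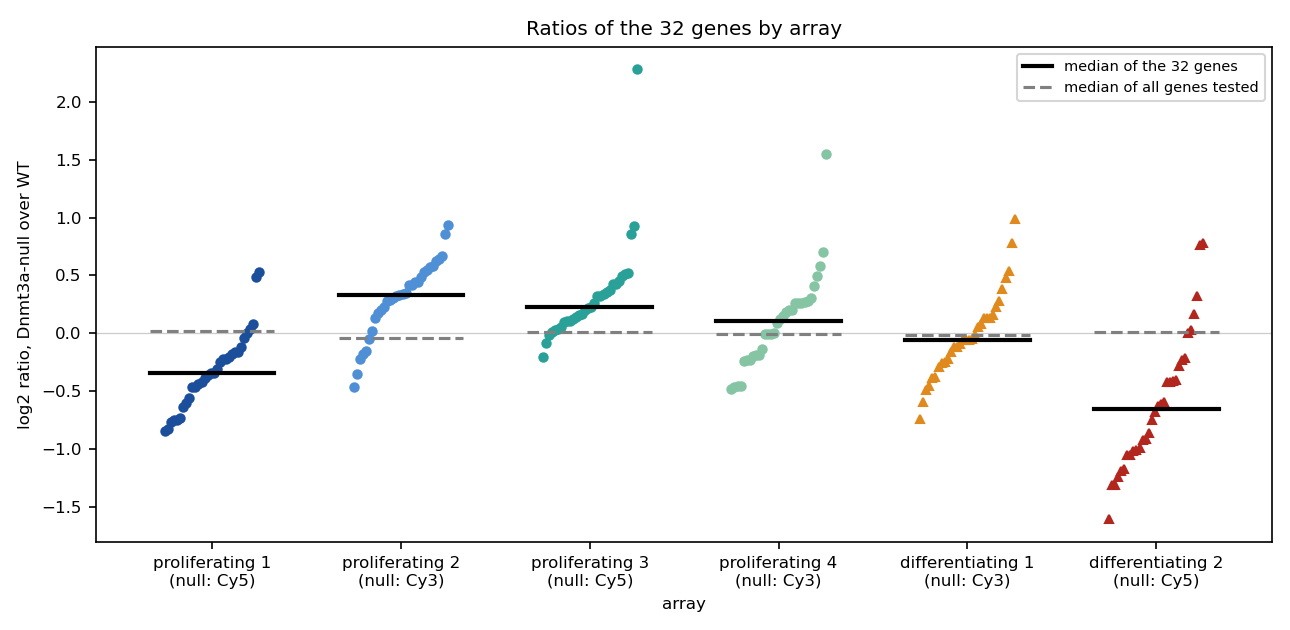
Log2 ratio of Dnmt3a-null over WT signal (vertical axis) of each of the 32 genes on each of the 6 arrays (horizontal axis, with the dye of the null sample), sorted within an array. Black lines are the medians of the 32 genes and dashed grey lines those of all genes tested: the members sit low on proliferating array 1 (-0.34) and differentiating array 2 (-0.66) and high on proliferating array 2 (0.34), while all genes stay near 0.

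The shift was seen in the enzymes of sterol synthesis and in those of fatty acid synthesis. The 16 members from acetyl-CoA to cholesterol had medians of -0.46 and 0.33 on proliferating arrays 1 and 2, and of -0.14 and -0.97 on differentiating arrays 1 and 2. The 10 members of fatty acid synthesis, desaturation and elongation had -0.26 and 0.38, then 0.04 and -0.52 on the same arrays. Differentiating array 2 was below array 1 in 29 of the 32 members (46.2% of all genes tested), and proliferating array 1 below array 2 in 28 (43.6% of all genes). Other probes of the same genes followed: of 24 further probes of 18 members that were well above background on all arrays, 19 were below 0 on proliferating array 1, 22 above 0 on proliferating array 2 and 22 below 0 on differentiating array 2. The median SD over the 4 proliferating arrays was 0.38 for the members and 0.23 for all genes tested, and the median gap between the differentiating arrays 0.78 against 0.20.

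The level of each channel on its own, relative to each gene's mean over all 12 channels, gave the members a median of -0.62 in KO cells on differentiating array 2 and of 0.08 in the WT cells of that array. On proliferating array 1 the median was 0.29 in WT and -0.12 in KO cells, and on proliferating array 2 it was 0.09 and 0.48. So the low ratio of differentiating array 2 came with a low KO channel, and that of proliferating array 1 with both a raised WT and a lowered KO channel. Dye moved with this pattern in part. Both low arrays had the KO sample in Cy5, yet so had proliferating array 3, where the median was above 0. The fitted dye coefficient (KO in Cy5) was below 0 for 28 of 32 members, with a median of -0.16 against 0.02 over all genes. The part of dye, or of a single culture, in these shifts was not tested.

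**Figure D2:**
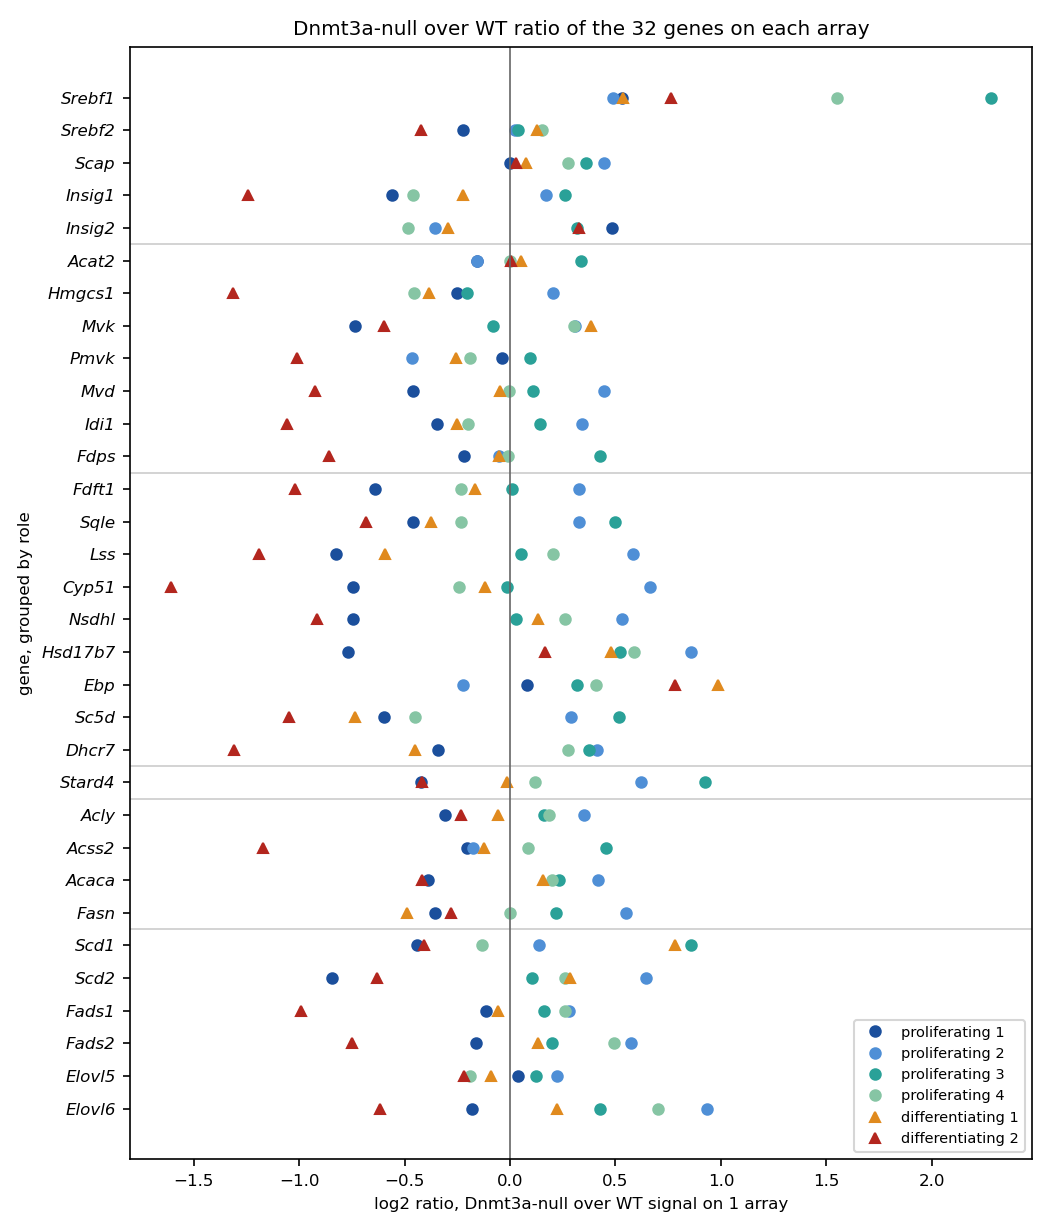
Log2 ratio of Dnmt3a-null over WT signal (horizontal axis) for each of the 32 genes (vertical axis, grouped by role), with 1 point per array, circles for proliferating and triangles for differentiating cells. Differentiating array 2 lies leftmost for most enzymes, while Srebf1 lies right of 0 on all 6 arrays and Ebp reaches 0.99 and 0.78 in differentiating cells.

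Among the regulators, Srebf1 was the only member with a ratio above 0 on all 6 arrays, which 5.84% of all genes tested had. Its log2 ratio was 0.53, 0.49, 2.28 and 1.55 on proliferating arrays 1 to 4 and 0.54 and 0.76 on differentiating arrays 1 and 2. Arrays 3 and 4, which differed at Ddx3y, were thus the high ones, and the rest lay between 0.49 and 0.76. The fitted ratio in proliferating cells was 1.21 ± 0.31 (SE; limma adjusted p = 0.157), and without those arrays 0.51 (adjusted p = 0.182). In differentiating cells it was 0.65 ± 0.44 (adjusted p = 0.537). The single Srebf1 probe (chromosome 11, 60281270 to 60281329 in build mm7) does not separate the SREBP-1a and SREBP-1c transcripts in these files.

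Srebf2, the main regulator of sterol enzymes, lay near its WT level, at 0.00 ± 0.16 (SD, n = 4) and -0.15 ± 0.39 (n = 2). Scap, the escort of SREBP, had 0.00, 0.44, 0.36 and 0.27 on the proliferating arrays and 0.08 and 0.03 on the differentiating arrays, with an adjusted p of 0.225 in the former. It lay above 0 on 5 arrays and at 0 on proliferating array 1. Insig1, which retains SREBP in the endoplasmic reticulum and is itself induced by it, had -0.56, 0.17, 0.26 and -0.46, then -0.22 and -1.24. The sign changed between proliferating arrays, and both differentiating arrays were below 0 (adjusted p = 0.284). For Insig2, the other retention protein, the brightest probe alternated with the dye: 0.48, -0.35, 0.32 and -0.48 on proliferating arrays and -0.29 and 0.33 on differentiating arrays, above 0 wherever KO was in Cy5 and below 0 wherever it was in Cy3. A second probe, also well above background on all arrays, gave -0.22, 0.51, -0.09 and 0.12, then 0.30 and 0.08, and so did not share this alternation. With the dye term the fitted ratio of the brightest probe was -0.01 ± 0.07 (SE) and 0.02 ± 0.10.

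Of the 7 members from acetyl-CoA to farnesyl pyrophosphate, 5 were below 0 on both differentiating arrays at their brightest probes. Hmgcs1, the synthase that makes HMG-CoA, had -0.25, 0.20, -0.20 and -0.45 on the proliferating arrays, then -0.39 and -1.31. Its fitted ratio in differentiating cells was -0.85 ± 0.22 (SE; 1.80-fold lower, adjusted p = 0.116), and a second probe detected on all arrays gave a mean of -0.46. Hmgcs1 was saturated in 1 KO channel. Idi1, the isomerase of isopentenyl pyrophosphate, had -0.35, 0.34, 0.14 and -0.20, then -0.25 and -1.06 (adjusted p = 0.19 in differentiating cells). Fdps, which makes farnesyl pyrophosphate, had -0.22, -0.05, 0.43 and -0.01, then -0.05 and -0.86 (adjusted p = 0.389). At the brightest probes of these 3 genes, differentiating array 2 was lower than any other array. Differentiating array 1 lay within the range of the proliferating arrays there. The second Fdps probe had -0.58 and -0.65 on differentiating arrays 1 and 2, both below its lowest proliferating value of -0.40. The second Idi1 probe, well above background on 5 arrays, was lowest on proliferating array 1 (-0.64), with 0.16 and -0.21 on the differentiating arrays.

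Pmvk and Mvd, a kinase and the decarboxylase of the mevalonate route, had means of -0.63 ± 0.53 and -0.48 ± 0.62 (SD, n = 2) in differentiating cells and -0.15 ± 0.24 and 0.02 ± 0.37 (n = 4) in proliferating cells. Mvk, mevalonate kinase, had opposite signs on the differentiating arrays, at 0.38 and -0.60, and a mean of -0.05 ± 0.49 in proliferating cells. Acat2, the cytosolic thiolase that joins acetyl-CoA units, did not take part in the shift. Its ratios were -0.16, -0.16, 0.34 and 0.00, then 0.05 and 0.00.

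In the 9 enzymes from squalene to cholesterol, 6 were below 0 and 2 above 0 on both differentiating arrays at their brightest probes. The lowest fitted ratios of any member in differentiating cells were here. Sc5d, the lathosterol desaturase, had -0.60, 0.29, 0.51 and -0.45 on the proliferating arrays, then -0.74 and -1.05. Lss, the cyclase that forms lanosterol, had -0.83, 0.58, 0.05 and 0.21, then -0.59 and -1.19. Dhcr7, which makes cholesterol from 7-dehydrocholesterol, had -0.34, 0.41, 0.38 and 0.28, then -0.45 and -1.31. At these brightest probes the differentiating values of Dhcr7 and Sc5d were below all 4 proliferating ones, whereas for Lss proliferating array 1 lay between them. The fitted ratios in differentiating cells were -0.89 ± 0.30 (SE; adjusted p = 0.212) for Sc5d, -0.89 ± 0.22 (adjusted p = 0.111) for Lss and -0.88 ± 0.20 (adjusted p = 0.0887) for Dhcr7, or 1.86-fold, 1.85-fold and 1.84-fold lower in KO cells. Further probes of Lss were above 0 on differentiating array 1, at 0.25 and 0.13, with differentiating means of -0.24 and -0.20. Those of Dhcr7 and Sc5d gave means of -0.52 and -0.59. The conditions overlapped at each of these probes. The second Dhcr7 probe had 0.02 on differentiating array 1 against -0.42 on proliferating array 1. The second Sc5d probe had -0.54 on differentiating array 1 against -0.60 on proliferating array 4. For Dhcr7 the difference between conditions was -1.06 ± 0.24, the largest in size of any member (adjusted p = 0.192).

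Cyp51, the lanosterol demethylase, had -0.74, 0.67, -0.01 and -0.24 on the proliferating arrays, then -0.12 and -1.61, the lowest ratio of any member on any array. Its mean in differentiating cells, -0.86 ± 1.05 (SD, n = 2; adjusted p = 0.228), therefore rested on array 2. Fdft1, squalene synthase, and Sqle, squalene epoxidase, were below 0 on both differentiating arrays, with means of -0.59 ± 0.60 and -0.53 ± 0.22. Nsdhl, a sterol dehydrogenase encoded on the X chromosome, had opposite signs there at its brightest probe, 0.13 and -0.92. Its other probes were below 0 on both arrays, with -0.47, -0.23 and -0.18 on array 1 and -0.70, -0.69 and -0.62 on array 2.

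Ebp and Hsd17b7 were the exceptions in this group. Ebp, the X-linked sterol isomerase that acts before Sc5d, had 0.08, -0.22, 0.32 and 0.41 on the proliferating arrays and 0.99 and 0.78 on the differentiating arrays. Both differentiating values exceeded all 4 proliferating ones. The fitted ratio in differentiating cells was 0.88 ± 0.17 (SE; 1.85-fold higher in KO cells, 95% interval 0.45 to 1.32), with the smallest adjusted p of any member in that comparison, 0.0661. Hsd17b7, a 3-ketosteroid reductase of the route, had -0.77, 0.86, 0.52 and 0.59, then 0.48 and 0.16, so that only proliferating array 1 was below 0. The fit gave 0.30 ± 0.22 when proliferating (adjusted p = 0.568) and 0.32 ± 0.30 when differentiating (adjusted p = 0.679).

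Across all members, 18 were below 0 on both differentiating arrays, which 30.5% of all genes tested were, and 5 were above 0 on both. The 95% interval of the fitted ratio lay below 0 for 11 members (7.86% of all genes) and above 0 for Ebp alone (9.66% of all genes), without adjustment for the number of genes. The call depended on the model and on how the spread was estimated. With the differentiating arrays fitted alone, 5 members passed limma's test (Dhcr7, Lss and Sc5d lower, Ebp and Srebf1 higher in KO cells) beside 1589 of all genes. That fit has no dye term and takes each gene's spread from these arrays only, so its count is not like for like with the main fit. With array weights 4 did (Dhcr7, Lss and Hmgcs1 lower, Ebp higher) beside 1724. Without proliferating arrays 3 and 4 there were 6 (Dhcr7, Hmgcs1, Cyp51, Sc5d and Insig1 lower, Ebp higher) beside 975. Without the dye term it was 1 (Ebp), and leaving out proliferating array 1, 2 or 3 also gave 1 (Lss, Ebp and Dhcr7), while without proliferating array 4 or either differentiating array it was 0. In proliferating cells the count was 0 under each of the 16 alternatives.

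**Figure D3:**
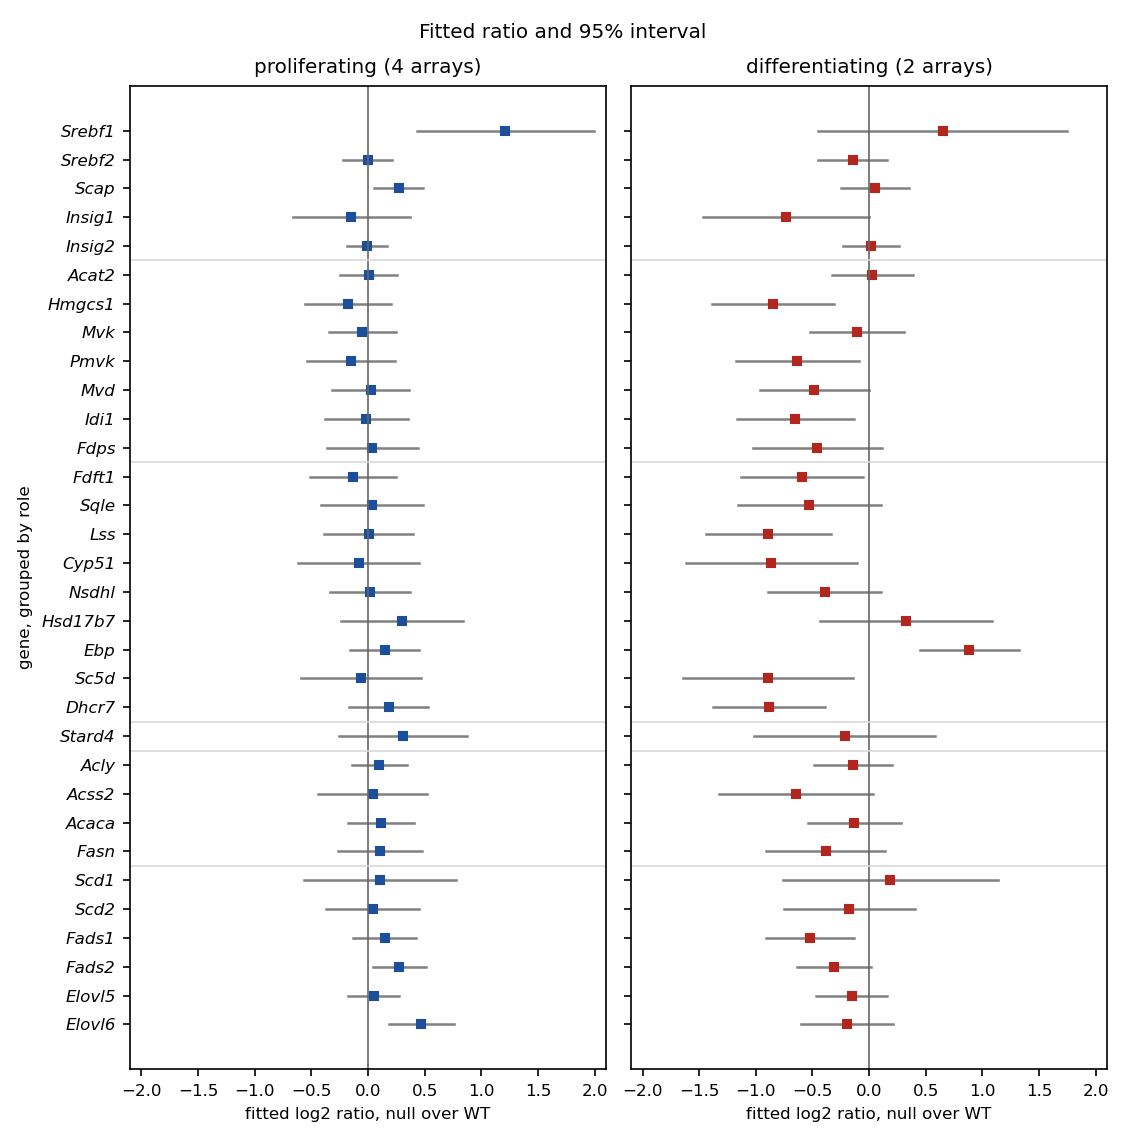
Fitted log2 ratio of Dnmt3a-null over WT (horizontal axis, squares) with its 95% interval (lines) for the 32 genes (vertical axis, grouped by role), in proliferating cells (left, 4 arrays) and differentiating cells (right, 2 arrays). In proliferating cells most squares lie near 0 and Srebf1 is farthest at 1.21. In differentiating cells 11 intervals lie below 0 and that of Ebp lies above it.

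Stard4, a carrier that moves sterol between membranes, had -0.42, 0.62, 0.93 and 0.12 on the proliferating arrays, then -0.01 and -0.42 (adjusted p = 0.571 and 0.82). The 4 members that make fatty acids from citrate and acetate had no 95% interval off 0 in either condition. Acly, which splits citrate into acetyl-CoA, had -0.31, 0.35, 0.16 and 0.18, then -0.06 and -0.23. Fasn, the fatty acid synthase, had means of 0.10 ± 0.38 (SD, n = 4) and -0.38 ± 0.15 (n = 2), with 1 WT and 2 KO channels saturated. Acaca, acetyl-CoA carboxylase, had 0.11 ± 0.35 and -0.13 ± 0.41, and Acss2, which activates acetate, 0.04 ± 0.30 and -0.65 ± 0.74. Array 1 on the proliferating side was below 0 in all 4 of these genes.

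The desaturases and elongases were all 6 above 0 in the fitted ratio of proliferating cells and all 6 below 0 on differentiating array 2. Elovl6, which extends palmitate, had -0.18, 0.93, 0.43 and 0.70 on the proliferating arrays, then 0.22 and -0.61. Its fitted ratio of 0.47 ± 0.12 (SE; 1.39-fold higher in KO cells) had the smallest adjusted p of any member in proliferating cells, 0.145, and 1 of 4 arrays went the other way. Fads2, the desaturase that begins the making of long polyunsaturated fatty acids, had -0.16, 0.57, 0.20 and 0.49, then 0.13 and -0.75 (adjusted p = 0.245 when proliferating and 0.31 when differentiating). Its neighbour in the pathway, Fads1, had a mean of 0.15 ± 0.18 (SD, n = 4) in proliferating cells and -0.52 ± 0.66 (n = 2) in differentiating cells. The stearoyl-CoA desaturases Scd1 and Scd2 had means of 0.11 ± 0.55 and 0.04 ± 0.63 in proliferating cells and 0.19 ± 0.84 and -0.17 ± 0.65 in differentiating cells. Scd2 was saturated in 3 WT and 3 KO channels, which bounds what its ratio can show. Elovl5, an elongase of polyunsaturated fatty acids, was among the steadiest members, with 0.05 ± 0.18 and -0.15 ± 0.09.

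The change from proliferating to differentiating cells within a genotype was read from single channels, as log2 intensities after Aquantile normalization. It compares arrays of different slides, so slide and condition cannot be told apart. In WT cells 3 of 32 members passed limma's test , against 14.9% of 18037 genes. Of these 1 was higher (9.01% of all genes) and 2 lower (5.88% of all genes) in differentiating cells. In KO cells 6 of 32 passed , against 15.2% of all genes, with 1 higher (9.14% of all) and 5 lower (6.1% of all). Over both directions together, the members' share was below that of all genes in WT cells and near it in KO cells. By direction, the share of lower calls was near that of all genes in WT cells and above it in KO cells. The share of higher calls was below that of all genes in both genotypes. The median log2 change over the members was -0.01 in WT and -0.47 in KO cells, against 0.05 and 0.05 over all genes. Over the 12 alternatives these medians ran from -0.13 to 0.12 in WT and from -0.62 to -0.14 in KO cells, the last without differentiating array 2. The difference between these medians restates the KO ratios of the 2 conditions. The test of that difference called no member, with adjusted p between 0.192 and 0.993.

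**Figure D4:**
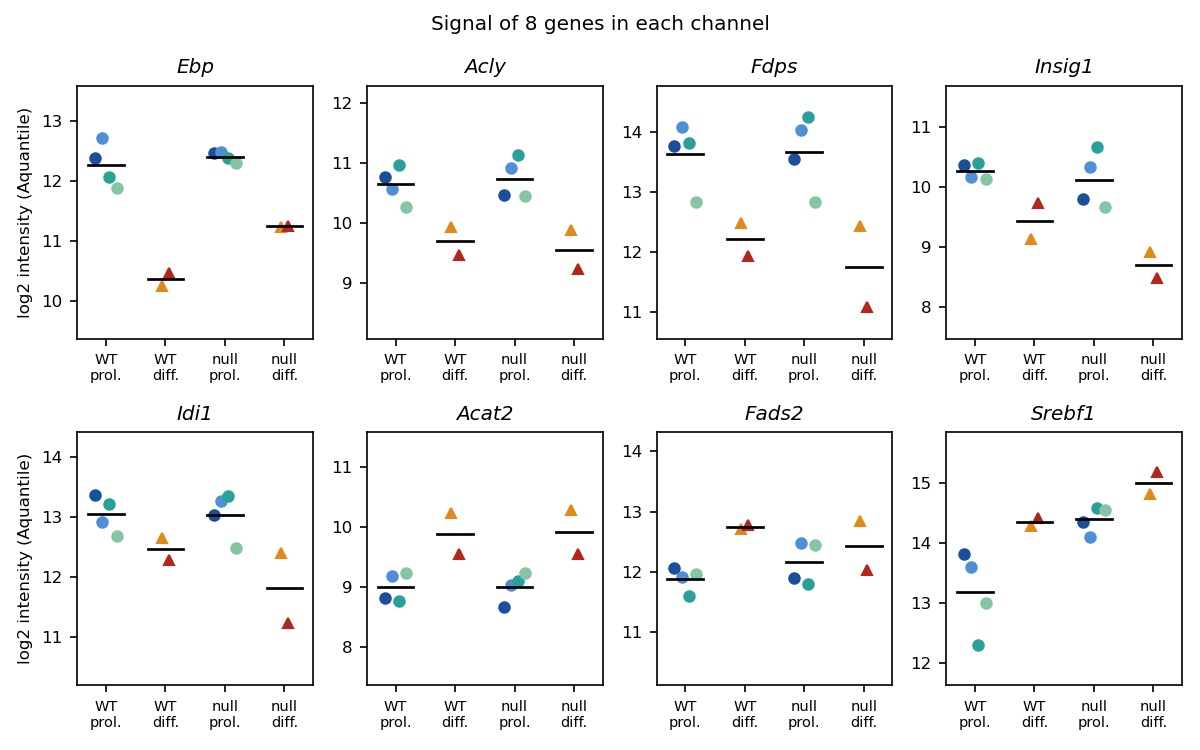
Log2 intensity after Aquantile normalization (vertical axis; each panel spans the same range) of 8 genes in WT and Dnmt3a-null cells, proliferating (circles, 4 arrays) and differentiating (triangles, 2 arrays), with black lines at the means. Ebp in WT cells lies between 11.89 and 12.71 when proliferating and at 10.25 and 10.47 when differentiating, and Fdps is lowest in Dnmt3a-null cells of differentiating array 2.

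Ebp, measured by a probe at chromosome X, 6618487 to 6618546 in mm7, fell in both genotypes. In WT cells its log2 intensity was 12.38, 12.71, 12.07 and 11.89 on the proliferating arrays and 10.25 and 10.47 on the differentiating arrays. In KO cells it was 12.46, 12.49, 12.39 and 12.29, then 11.24 and 11.26. No differentiating value overlapped a proliferating one. The change was -1.90 ± 0.26 (SE; 3.73-fold lower, limma adjusted p = 0.00275) in WT and -1.16 ± 0.26 (2.23-fold lower, adjusted p = 0.0193) in KO cells. In WT cells it kept its call in 11 of 12 alternatives and lost it without differentiating array 1 (adjusted p = 0.081). In KO cells it kept it in 7 of 12.

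Acly, with its probe at chromosome 11, 100586242 to 100586300, also fell in both. WT cells had 10.77, 10.57, 10.96 and 10.26 when proliferating and 9.94 and 9.47 when differentiating, and KO cells 10.46, 10.92, 11.13 and 10.45, then 9.89 and 9.23. The ranges did not overlap. Its change was -0.94 ± 0.26 (1.92-fold lower, adjusted p = 0.0417) in WT and -1.18 ± 0.26 (2.27-fold lower, adjusted p = 0.0189) in KO cells. It kept its call in 5 and 6 of 12 alternatives. Fads2, with its probe at chromosome 19, 9744385 to 9744815, rose in WT cells, from 12.06, 11.91, 11.59 and 11.96 to 12.70 and 12.77, by 0.86 ± 0.23 (1.81-fold, adjusted p = 0.0342), a call kept in 5 of 12 alternatives. In KO cells its levels were 11.90, 12.48, 11.79 and 12.45, then 12.84 and 12.02. These overlapped, with a change of 0.27 ± 0.23 (adjusted p = 0.436), and the difference from WT did not pass (adjusted p = 0.252).

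Fdps, Insig1 and Idi1 passed in KO cells, with lower levels in differentiating cells. Fdps and Insig1 kept this call in 6 of 12 alternatives and Idi1 in 4, with changes from -2.61 to -1.19 for Fdps, -1.72 to -1.18 for Insig1 and -1.75 to -0.67 for Idi1. Fdps had 13.54, 14.02, 14.24 and 12.83 in proliferating and 12.43 and 11.08 in differentiating KO cells, a change of -1.90 ± 0.47 (3.74-fold lower, adjusted p = 0.0255). In WT cells the change was -1.41 ± 0.47 (adjusted p = 0.0685). Proliferating array 4, the array low in dividing cell markers, was the lowest proliferating value in both genotypes. A second Fdps probe gave changes of 0.57 in WT and -0.08 in KO cells, so the probes disagree. Insig1 had 9.81, 10.34, 10.67 and 9.67 in proliferating and 8.92 and 8.498 in differentiating KO cells, a change of -1.41 ± 0.42 (2.67-fold lower, adjusted p = 0.0477). In WT cells its change was -0.83 ± 0.42 (adjusted p = 0.204), and its second probe gave -0.72 and -1.04. Idi1 had 13.03, 13.26, 13.35 and 12.48, then 12.41 and 11.24, a change of -1.21 ± 0.36 (2.31-fold lower, adjusted p = 0.0488). WT cells had -0.57 ± 0.36 (adjusted p = 0.305). Both Idi1 probes are placed on chromosome 2 in the files' build mm7, whereas RefSeq places the gene on chromosome 13 in GRCm38.p6.

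Acat2 rose in KO cells, from 8.67, 9.04, 9.11 and 9.23 to 10.29 and 9.56, by 0.91 ± 0.27 (1.88-fold, adjusted p = 0.0461). The call was kept in 4 of 12 alternatives, over which the change ran from 0.50 to 1.32 and the adjusted p up to 0.414. In WT cells it went from 8.82, 9.19, 8.77 and 9.24 to 10.23 and 9.55, with a change of 0.89 ± 0.27 and an adjusted p of 0.0505, just outside the threshold. The genotypes thus had close values, and the interval of their difference was -0.41 to 0.46. Srebf1, which passed in neither genotype, had 13.83, 13.60, 12.30 and 13.00 in proliferating and 14.29 and 14.42 in differentiating WT cells, with a change of 1.17 ± 0.61 (adjusted p = 0.219). Its low WT level on proliferating array 3 is the other side of the high ratio there.

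The counts between conditions rested on few arrays. In WT cells they were 1, 1, 1 and 5 without proliferating array 1, 2, 3 or 4 and 0 and 1 without differentiating array 1 or 2. In KO cells they were 0, 1, 0 and 8 without a proliferating array and 0 and 0 without a differentiating one. Calls over all genes moved the same way, from 2685 to as few as 200 without differentiating array 1 and as many as 3817 without proliferating array 4 in WT cells, and from 2750 to 212 and 4723 in KO cells. Other probes of a member also differed in this comparison more than in the KO ratios. Lss had a change of 0.42 in WT cells at its brightest probe and of -0.75 and -0.84 at the others, Hmgcs1 had 0.21 against -1.34, Stard4 -0.22 against -1.47 and -1.28, and Fasn -0.01 against 1.21. Markers of dividing cells moved with the conditions: all 6 were lower in differentiating cells of both genotypes, with list medians of -4.08 in WT and -2.93 in KO cells. Their part in the changes of the members was not tested.

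Marker levels also differed between the genotypes. In differentiating cells 3.1% of all genes passed limma's test between the genotypes, and in proliferating cells 0.97% did. All 6 markers of dividing cells passed as higher in differentiating KO cells, with medians of 1.51 and 1.17 on arrays 1 and 2. Of 8 neuronal markers 5 passed as lower there, with medians of -1.15 and -1.24, and the fitted ratio was below 0 for all 8. Of 8 astroglial markers 2 passed as higher there, with medians of 1.05 and 1.29, and 2 had fitted ratios below 0. Of 13 oligodendroglial markers 2 passed as higher in proliferating and 5 in differentiating KO cells. Their median ratio was above 0 on every array, from 0.52 on proliferating array 2 to 2.17 on differentiating array 2. Olig1, Olig2 and Pdgfra went the other way in differentiating cells, with fitted log2 ratios of -0.34, -0.70 and -0.38. Relative to each gene's mean, the median level of the oligodendroglial list ranged from -1.62 to -0.69 in proliferating WT, from -0.44 to 0.90 in proliferating KO, from -0.33 to 0.14 in differentiating WT and from 1.79 to 2.19 in differentiating KO cells. The oligodendroglial medians of the differentiating arrays were 2.15 and 2.17, and the members' medians on the same arrays were -0.05 and -0.66. Single markers differed more than these list medians. The median gap between the 2 arrays was 0.44 for oligodendroglial, 0.48 for astroglial, 0.35 for dividing cell and 0.24 for neuronal markers. It was 0.20 for all genes tested and 0.78 for the members. The part of cell composition in the members' ratios was not tested.

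Other genes of sterol synthesis and uptake, 15 of 16 listed being tested, included none that passed in either KO comparison. Msmo1, a sterol methyl oxidase, had -0.74, 1.11, 0.33 and 0.14, then 0.18 and -1.10 (adjusted p = 0.727 and 0.556). It was lowest on differentiating array 2 and was picked after its values were seen. The list as a whole had medians of 0.06 and 0.07 on proliferating arrays 1 and 2 and of 0.10 and -0.02 on differentiating arrays 1 and 2. Lbr, a sterol reductase of the nuclear membrane, fell from proliferating to differentiating cells by 1.34 on the log2 scale in WT (adjusted p = 0.0311) and by 1.56 in KO cells (adjusted p = 0.0187).

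Genes of LXR signalling and sterol export, which act when sterol is in surplus, had no call in the KO comparisons among 10 tested, with a median fitted ratio of 0.11 in proliferating and 0.48 in differentiating cells. Abca1, a cholesterol exporter, had 1.17, -0.37, 0.43 and -0.08, then 0.51 and 1.40 (adjusted p = 0.372 and 0.0661), so it was highest on the 2 arrays where the synthesis enzymes were lowest. Abcg1, another exporter, had 1.63, 0.50, 1.18 and 1.27, then 0.29 and 1.34 (adjusted p = 0.0504 and 0.141). Both were picked after their values were seen. Cyp46a1, the neuronal cholesterol hydroxylase, rose on differentiation by 0.70 in WT (adjusted p = 0.0265) and 0.64 in KO cells (adjusted p = 0.0366).

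Of the other genes of fatty acid synthesis, elongation and activation, 26 of 28 were tested. In proliferating KO cells 1 passed as higher, where 0.97% of all genes passed in either direction. In differentiating KO cells 2 passed as higher, against 3.1% of all genes in either direction. None passed as lower, while the fitted ratio was below 0 for 9 of 26 in proliferating and 12 of 26 in differentiating cells. Elovl7, an elongase of long saturated acyl chains, had 0.89, 1.52, 1.33 and 1.73 on the proliferating and 1.47 and 1.79 on the differentiating arrays. It was above 0 on all 6, the arrays on which most members were low included. The fitted value reached 1.37 when proliferating (adjusted p = 0.0244) and 1.63 when differentiating (adjusted p = 0.0229). Fa2h, the fatty acid hydroxylase that serves myelin lipids, had 0.05, 1.33, 0.37 and 1.31, then 1.44 and 1.21, and a fit of 1.32 when differentiating (adjusted p = 0.0327) and 0.76 when proliferating (adjusted p = 0.0782). On proliferating array 2, where Fa2h was highest, the oligodendroglial markers given above had their lowest median, 0.52, while both were high on the differentiating arrays. The part of those markers in these ratios was not tested.

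Between conditions, 4 genes of this list passed as higher (9.01% of all genes) and 2 as lower (5.88%) in WT cells. In KO cells 5 passed as higher (9.14%) and 2 as lower (6.1%). Degs1, a ceramide desaturase, rose by 1.26 in WT and 1.18 in KO cells (adjusted p = 0.0112 and 0.0146). Lpin1, a phosphatidate phosphatase, fell by 1.25 and 1.08 on the log2 scale (adjusted p = 0.0116 and 0.0201). Elovl7 rose by 2.01 and 2.27 (adjusted p = 0.0142 and 0.00951) and Fa2h by 1.51 and 2.07 (adjusted p = 0.0216 and 0.00704). Pnpla3, a lipid droplet lipase, rose in WT cells by 1.66 (adjusted p = 0.0191) and Acsl3, an acyl-CoA synthetase, in KO cells by 1.09 (adjusted p = 0.0344). Thrsp, a regulator of lipogenesis, fell in WT cells by 2.83 on the log2 scale (adjusted p = 0.0321), the largest change in this list there, and had -0.83 in KO cells (adjusted p = 0.469). Acsl4, a synthetase for polyunsaturated acyl-CoA, fell in KO cells by 1.41 (adjusted p = 0.0366), and Ugt8a, which makes the galactosylceramide of myelin, rose in KO cells by 2.66 (adjusted p = 0.0372).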

How the data were processed

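For every array the authors deposited the scanner table written by Agilent Feature Extraction 9.5.1.1, per the file headers, with mean pixel intensity and local median background per dye, processed intensity values and a log10 ratio of Cy5 over Cy3. The authors' deposited value table repeats these log10 ratios (r of 1 or -1 with each array), signed as KO over WT, with a median of 0 on every array. Probe positions are on mm7, per the file headers. In R 4.3.3, limma 3.58.1 subtracted background from the mean intensities by normexp with an offset of 50, and loess normalization followed within arrays, giving no weight to control spots and those marked as outliers, which were then left out. Repeat spots were averaged, and each gene was represented by its brightest probe, kept if 1 channel or both stood well above background on 2 or more of 6 arrays. The resulting log2 ratios (KO over WT) entered a limma fit (lmFit, eBayes) over 6 arrays, the terms being proliferating, differentiating and dye (3 residual and 2.58 prior degrees of freedom). For changes between conditions, channels were Aquantile-normalized and fitted separately with lmscFit (intraspot correlation 0.764, 18037 genes, statmod 1.5.0). Adjusted p-values are 2-sided Benjamini-Hochberg values over all genes tested. Fits were tested on simulated data. Array-by-array values are given for members that passed a comparison and for the 6 members with the largest mean ratio in each KO comparison. Genes outside the list are named from fixed pathway lists where they passed, up to 6 of smallest p per comparison, and the remaining ones that passed (Lbr and Thrsp in WT, Acsl4, Cyp46a1 and Ugt8a in KO cells) were added after their values were seen. Other exceptions are stated where they occur. The members and lists were chosen with earlier results of these data known. The alternatives were Agilent's processed signals, median centring, other filters and probe rules, array weights, no dye term, a replicate block, fewer arrays and, between conditions, quantile normalization over channels.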

Additional observations from a re-analysis of the deposited data

How the results depend on the processing

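None of the 32 members passed in proliferating cells, or for the difference between conditions, under any alternative run. In differentiating cells the count of 0 became 1 without the dye term, 4 with array weights and 6 without proliferating arrays 3 and 4 together. It was 5 with the condition fitted alone, a fit that also lacks the dye term. The count ranged from 0 to 1 with a single proliferating array left out. Between conditions, the 3 calls in WT cells became 5 with a replicate block and 1 without proliferating arrays 3 and 4 together, with a range of 0 to 5 when leaving out 1 array. The 6 calls in KO cells became 3 without the filter on dim probes, 11 with the replicate block and 1 without proliferating arrays 3 and 4 together, with a range of 0 to 8. The labels do not say whether same-numbered arrays share a culture. Their deviations from the condition means correlated at -0.37 and -0.29. This cannot decide the question, since same-numbered arrays carry opposite dyes and the deviations of 2 differentiating arrays mirror each other. Over all genes the replicate block took the calls between conditions from 2685 to 5854 in WT and from 2750 to 6336 in KO cells. The KO comparisons kept 0 member calls with it. Over all genes the differentiating KO comparison had 559 calls, against 285 with median centring and 1724 with array weights, and the proliferating comparison 175, against 4 without proliferating array 3 and 0 without either differentiating array. No member called between conditions changed sign under any of 12 alternatives each, and the members' median ratio stayed below 0 in differentiating cells, from -0.50 to -0.12, while in proliferating cells it ran from -0.13 to 0.16. A slide block was not run, since each slide holds 1 condition. A lone array left in a condition is assumed to vary like the others. With 2 arrays, differences in differentiating cells of the size seen here are at the edge of what could be called, and signal over background was no limit for the members.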
